A study of Drosophila melanogaster with 2 samples.

Results

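The 8 Hox genes of Drosophila melanogaster lie in 2 clusters on chromosome arm 3R: lab, pb, Dfd, Scr and Antp in the Antennapedia complex, and Ubx, abd-A and Abd-B in the bithorax complex. They were taken by symbol and are 8 of 13945 protein-coding genes on the main arms. A bound region was assigned to a Hox gene when its summit, the position of highest signal in the region, lay in the gene body or within 10000 bp of it. The 8 windows do not overlap and cover 497524 bp. Of the authors' thresholded pooled peaks on the main arms, 6 of 1825 had their summit in these windows, and of the longer ranked pooled list, 515 of 145186 regions did.

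The regions come from chromatin immunoprecipitation and sequencing with an antibody against GFP. All samples were whole embryos, 0 to 18 h old, of the transgenic strain gt-GFP, which expresses the Giant protein fused to eGFP. There was 1 group with 2 samples, which the labels call biological replicates, and no second genotype, treatment or time. The insertion targets gt per the labels, which do not say whether an untagged gt product was also present. Chromatin was sonicated to 200 to 800 bp. In chromatin of whole embryos, binding in a small share of the cells and weak binding in many cells cannot be told apart.

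Hox proteins are homeodomain transcription factors that give each body segment its identity, and their genes lie along the chromosome in the order of the segments they specify. The gap proteins, of which the bZIP repressor Giant is one, set the limits within which Hox genes are first transcribed in the early embryo. After the gap proteins have decayed, Polycomb and Trithorax group proteins keep each Hox gene off or on through DNA elements spread over its large regulatory region, and GAGA factor and Pho are among the proteins that bind those elements.

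The signal printed for a region is the value given by the authors' peak caller, and it is used here only within a list. Regions in the thresholded lists passed a limit on the irreproducible discovery rate (IDR), which measures how alike 2 peak sets rank a region. Each of the 1825 thresholded pooled peaks had a −log10 IDR of at least 2 in the ranked list. The ranked lists hold all candidate regions, most of them below that limit, with a median spacing of 628 bp in the pooled list. These lists carry signals but no read counts, so the depth behind a signal is unknown. At gt itself, the highest signal was 79.6 in the pooled list, 31.3 in replicate 1 and 61.4 in replicate 2. Within 10000 bp of gt, the thresholded list of replicate 1 held no summit. That of replicate 2 held 3, and the pooled and the conservative list held 1 each.

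Sequence is shown for 5 thresholded summits at or near Hox genes, as examples of the sites described. Each of them holds a motif match, but the strongest Antp peak, which is not printed, held none within 100 bp. The examples therefore do not give the share of peaks with a motif. The 201 bp around each are printed as the Release 6 (dm6) RefSeq sequence, plus strand, with matches to the motifs searched in capitals. The first and second are the intronic Antp peaks at chr3R:6914398-6914598 and chr3R:6949009-6949209. The others are the peak beyond the 3′ end of Ubx at chr3R:16647050-16647250, the peak beyond the 3′ end of abd-A at chr3R:16798828-16799028, and a peak beside Abd-B that was thresholded only in replicate 2, at chr3R:16921093-16921293.
Antp intron, signal 94.0: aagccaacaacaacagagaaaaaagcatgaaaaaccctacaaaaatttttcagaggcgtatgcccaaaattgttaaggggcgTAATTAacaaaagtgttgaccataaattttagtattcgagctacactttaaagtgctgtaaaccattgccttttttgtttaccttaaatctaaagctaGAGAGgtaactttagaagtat
Antp intron, signal 72.1: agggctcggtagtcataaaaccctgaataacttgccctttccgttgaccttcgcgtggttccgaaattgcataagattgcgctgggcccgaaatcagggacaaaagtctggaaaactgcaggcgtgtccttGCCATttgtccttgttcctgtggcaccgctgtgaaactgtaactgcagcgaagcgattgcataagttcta
Ubx window: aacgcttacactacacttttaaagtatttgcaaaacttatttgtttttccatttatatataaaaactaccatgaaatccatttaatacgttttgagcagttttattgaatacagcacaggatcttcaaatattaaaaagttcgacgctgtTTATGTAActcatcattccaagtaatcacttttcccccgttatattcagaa
abd-A window: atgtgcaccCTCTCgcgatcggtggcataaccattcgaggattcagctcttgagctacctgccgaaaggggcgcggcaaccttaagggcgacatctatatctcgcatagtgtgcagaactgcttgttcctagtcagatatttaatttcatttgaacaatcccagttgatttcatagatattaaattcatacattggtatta
Abd-B window, replicate 2: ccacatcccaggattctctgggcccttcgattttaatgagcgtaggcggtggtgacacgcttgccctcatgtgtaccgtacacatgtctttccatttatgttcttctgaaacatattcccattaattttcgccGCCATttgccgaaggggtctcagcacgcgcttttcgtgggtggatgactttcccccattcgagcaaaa
The capitals mark a homeodomain core and a GAGA factor site in the upper Antp sequence and a Pho core in the lower one. They mark TTATGTAA, a Giant site with 1 mismatch, in the Ubx window. In the abd-A window they mark a GAGA factor site read on the minus strand, and in the Abd-B window a Pho core. The letters of each motif are given with the motif counts.

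Thresholded binding was found at 3 of the 8 Hox genes: Antp with 4 summits, Ubx with 1 and abd-A with 1. Only the 4 Antp summits lay inside a Hox gene body. Over all protein-coding genes, 34.9% had a thresholded pooled summit in a window of the same kind, and 45.7% of the 1865 genes whose window was at least as long as that of Dfd, the shortest Hox window with 30593 bp. The count of 3 of 8 is thus close to the share over all genes. Within 5000 bp 1 Hox gene (Antp) held a summit, against 24% of all genes, and within 20000 bp 5 did, against 50.1%. In the gene body alone 1 did, against 5.76%, and when each summit went to the nearest TSS 1 did, against 9.18%. The density was 1.21 thresholded summits per 100 kb at Hox genes, against 1.36 on the main arms and 1.27 on arm 3R. The 6 peaks were of ordinary strength for the list, with a median signal of 83.6 against 93.7, and ranged from 6.81 to 152.9. No thresholded peak of any of the 4 lists lay within 500 bp of any of the 19 annotated Hox transcription start sites (TSS). Such peaks were rare at other promoters too, with 8.56% of all protein-coding genes and 7.61% of their TSSs holding one.

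The conservative list, the shorter of the series-level thresholded lists, held 6 summits at 2 Hox genes, 5 at Antp and 1 at abd-A. Its share over all genes was 31.1%, and 41% over the genes with long windows. In replicate 1, 3 thresholded summits lay at 2 Hox genes (2 at Antp, 1 at abd-A), where 27.3% of all genes and 35.9% of those with long windows held one. In replicate 2, 4 Hox genes held 1 summit each (Antp, Ubx, abd-A and Abd-B), against 24.1% of all genes and 32% of those with long windows. At the densities of those lists on the main arms, 4.32 and 4.09 summits would lie in windows of this total length. Antp and abd-A were the only Hox genes with a thresholded summit in all 4 lists. How many of all genes had a summit in all 4 lists was not counted, so this is a description.

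**Figure D1:**
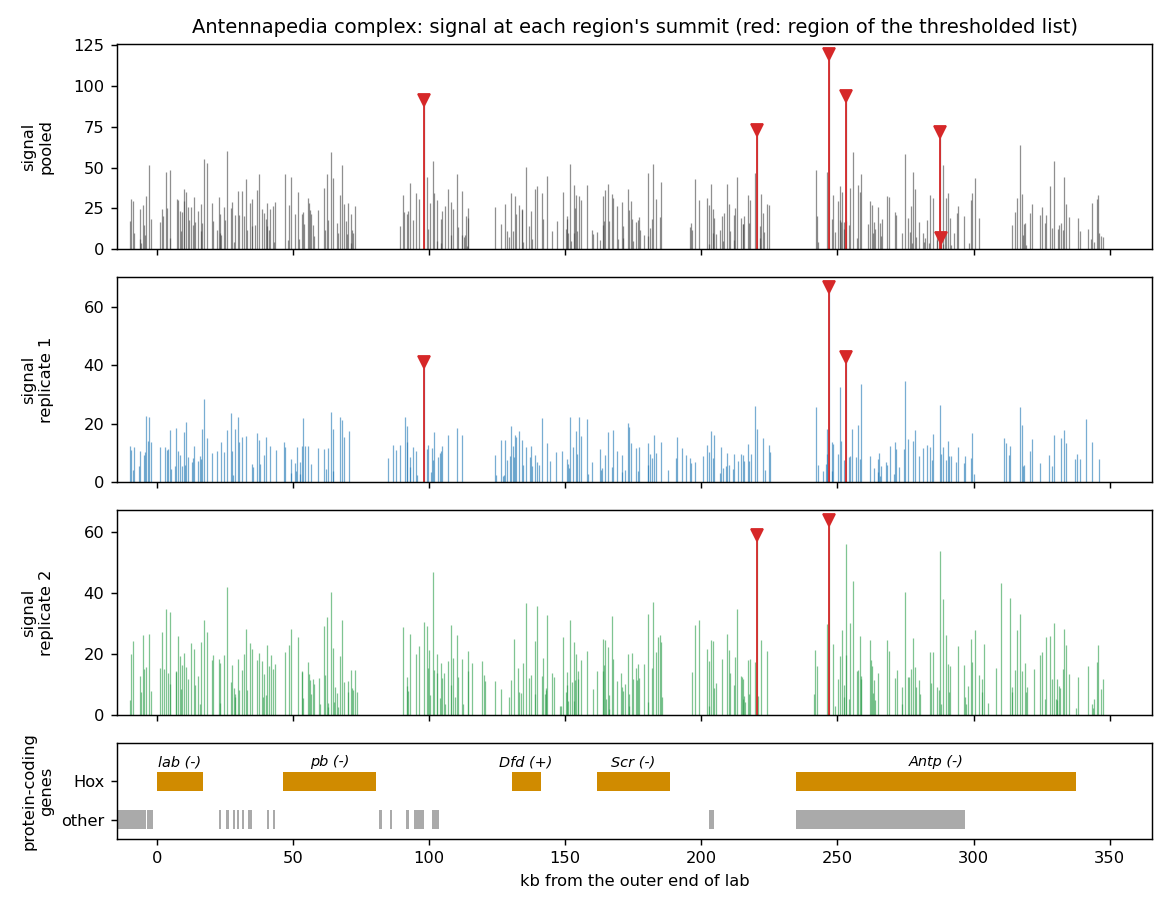
Signal at the summit of each ranked region (y axis, authors' caller units) along the Antennapedia complex (x axis, kb from the outer end of lab), for the pooled data and each replicate, with regions of the thresholded list in red and gene bodies below. The 4 red Hox peaks of the pooled panel all lie in Antp, and the strongest of them, at 119.9, is red in every panel.

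Antp specifies the thoracic segments and has the longest gene body of the 8, 102976 bp. Its strongest peak had the summit at position 6908233, in the 3′ UTR of Antp and 24607 bp from its nearest TSS, with a pooled signal of 119.9, rank 592 of 1825. The overlapping regions had signals of 66.9 in replicate 1 and 64.0 in replicate 2, ranks 416 of 104826 and 728 of 127147 in the ranked lists, and both were thresholded. This is the only peak inside a Hox gene body that passed the threshold in both replicates. All Antp summits named here also lie within CG46458, a protein-coding gene annotated on the same strand inside Antp.

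The second Antp peak, in an intron at 6914498, had a pooled signal of 94.0 and signals of 42.7 in replicate 1 and 56.2 in replicate 2. It was thresholded in replicate 1 but not in replicate 2, although it ranked 912 and 928 in their ranked lists. Another peak, in an intron at 6949109, had a pooled signal of 72.1, with 26.4 in replicate 1 and 53.9 in replicate 2. It was thresholded in neither replicate but in the pooled and the conservative list. The remaining summit, at 6949308, lies 199 bp from it, and its signal of 6.81 was below the median of the ranked list, 19.4. An intronic site at 6936282 passed only in the conservative list, with a signal of 58.1 in the pooled data, 34.7 in replicate 1 and 40.5 in replicate 2.

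No thresholded peak was assigned to lab, pb, Dfd or Scr, the genes that pattern the head and the first thoracic segment, in any of the 4 thresholded lists. Most protein-coding genes had none in a given list either. The shares with a summit were 34.9% (pooled), 31.1% (conservative), 27.3% (replicate 1) and 24.1% (replicate 2). The share of genes with none in every list was not counted. At lab, which acts in the intercalary segment and the midgut, the strongest ranked region had a signal of 60.2 and lay 8747 bp upstream, in the coding sequence of Ccp84Ag, with a GC content of 72.6%. Its signals were 17.7 in replicate 1 and 41.9 in replicate 2. The next lay 196 bp upstream of the lab TSS, with 55.5 in the pooled data, 28.6 in replicate 1 and 31.0 in replicate 2, which made it the strongest replicate 1 region at lab. At pb, which specifies the adult mouthparts, the strongest region was intronic, with a pooled signal of 59.8, 24.1 in replicate 1 and 40.3 in replicate 2.

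At Dfd, which specifies the mandibular and maxillary segments, the strongest region was intronic, with 50.4 in the pooled data, 12.1 in replicate 1 and 36.8 in replicate 2. At Scr, which specifies the labial segment and first thoracic segment and turns on salivary gland formation, it was intronic too, with 52.2, 16.3 and 37.2. Both stood higher in replicate 2's list, with ranks 2802 and 2671 of 127147, than in replicate 1's, with ranks 42579 and 18748 of 104826.

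**Figure D2:**
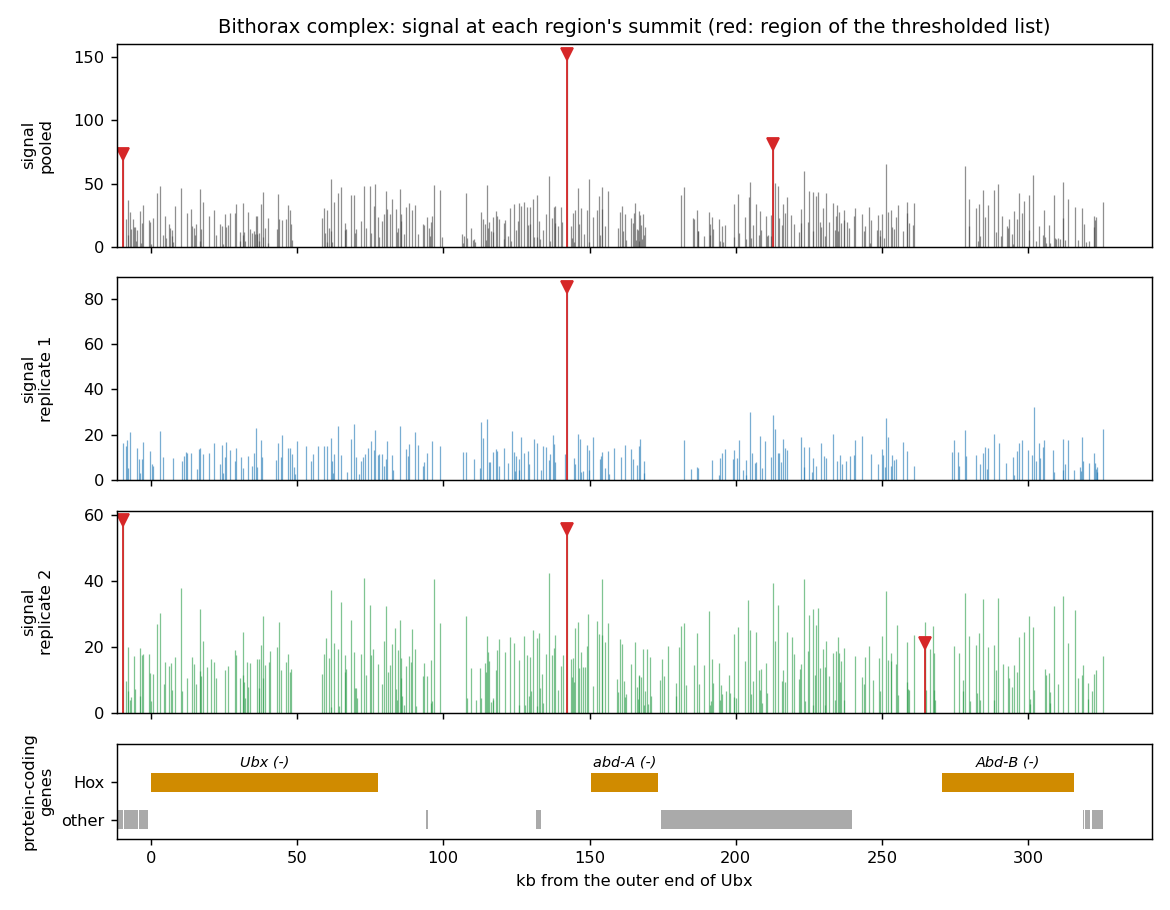
Signal at the summit of each ranked region (y axis, authors' caller units) along the bithorax complex (x axis, kb from the outer end of Ubx), drawn as for the Antennapedia complex. The peak near abd-A, at 152.9 in the pooled data, is red in all 3 panels, and none of the 3 gene bodies holds a red peak.

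The strongest peak of any Hox window lay near abd-A, which specifies most abdominal segments. Its summit at 16798928 is intergenic, 8286 bp beyond the 3′ end of abd-A and 10617 bp from the nearest protein-coding TSS, that of Glut3, a sugar transporter gene. The signal was 152.9 in the pooled data (rank 383 of 1825 thresholded peaks), 85.1 in replicate 1 (251 of 1163) and 55.7 in replicate 2 (858 of 1100), and it passed all 4 thresholds. Inside the abd-A gene body the highest pooled signal was 47.2.

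At Ubx, which specifies the third thoracic and first abdominal segments and the haltere, the single peak had its summit 9473 bp beyond the 3′ end, at 16647150. That is 146 bp from a TSS of CG10324 and within 500 bp of the start of CCT3, which runs the other way. The Ubx TSS is 87276 bp away, so the peak is assigned to Ubx by the 10000 bp window alone. Its signal was 73.3 in the pooled data, 16.5 in replicate 1 and 58.4 in replicate 2. The replicates differed here: the region ranked 858 of 127147 ranked regions and was thresholded in replicate 2, but ranked 17854 of 104826 and was not thresholded in replicate 1. Inside Ubx the strongest region was intronic, with 53.4 in the pooled data, 18.5 in replicate 1 and 37.4 in replicate 2.

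Abd-B, which specifies the posterior abdomen and the genitalia, had no pooled thresholded peak. Its strongest region, 759 bp from one of its 6 TSSs, had a pooled signal of 63.7, with 22.1 in replicate 1 and 36.4 in replicate 2. The thresholded summit that replicate 2 held beside Abd-B, at 16921193 in an intron of lncRNA:iab8, had a signal of 21.2, rank 1042 of the 1100 peaks in that list. No replicate 1 region overlapped it.

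**Figure D3:**
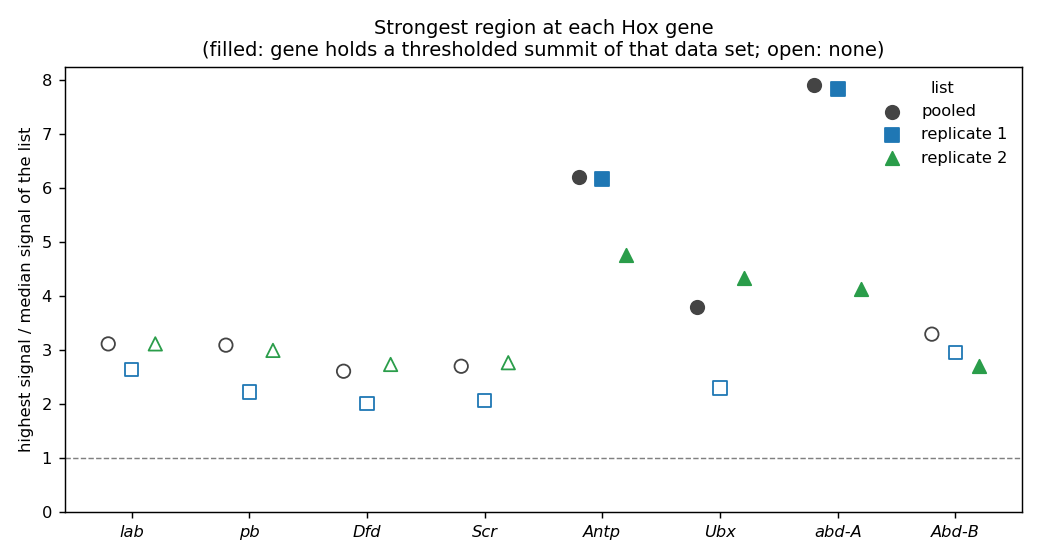
Highest signal among the ranked regions of each Hox gene, divided by the median signal of the same list (y axis), in the pooled data and in each replicate; filled symbols mark genes with a thresholded summit in that data set. Antp and abd-A lie above 4 times the median in all 3 lists, and the other genes below it, except Ubx in replicate 2.

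Since the lists are on different scales, the highest signal in each gene's window was also expressed as a multiple of its list's median signal. The highest signal came from the same region in both replicates at 3 genes (pb, Antp and abd-A) and from different regions at the other 5, so these values describe the window and not 1 site. As a mean over the 2 replicates, the order was abd-A 5.98 ± 2.61 (SD, n = 2), Antp 5.45 ± 0.997, Ubx 3.31 ± 1.44, lab 2.87 ± 0.339, Abd-B 2.82 ± 0.177, pb 2.60 ± 0.545, Scr 2.42 ± 0.491 and Dfd 2.37 ± 0.509. Among neighbours in this order, only Antp and Ubx had values that did not overlap, 6.16 and 4.75 against 2.29 and 4.33. The order of the leading genes changed with the replicate: abd-A led in replicate 1 with 7.83, and Antp led in replicate 2, where abd-A had 4.13. At the strongest pooled region itself, the multiples in replicates 1 and 2 were 1.12 and 2.73 at Dfd, 1.497 and 2.76 at Scr, 1.52 and 4.33 at Ubx, 1.63 and 3.11 at lab, and 2.03 and 2.70 at Abd-B.

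A longer window offers more regions from which to draw a highest value. Among the 1865 genes with long windows, the pooled highest signal stood at percentile 84.5 for abd-A, 77.8 for Antp, 58.9 for Ubx, 51.4 for Abd-B, 45.1 for lab, 44.5 for pb, 28.5 for Scr and 23.5 for Dfd. The median over the 8 genes was 62.0, against 62.8 over the genes with long windows. Those genes share only a lower limit on length, and their median window was 41785 bp. Antp had 122976 bp, Ubx 97804 bp and the 8 Hox genes 50563 bp in the median, so length is only partly allowed for.

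**Figure D4:**
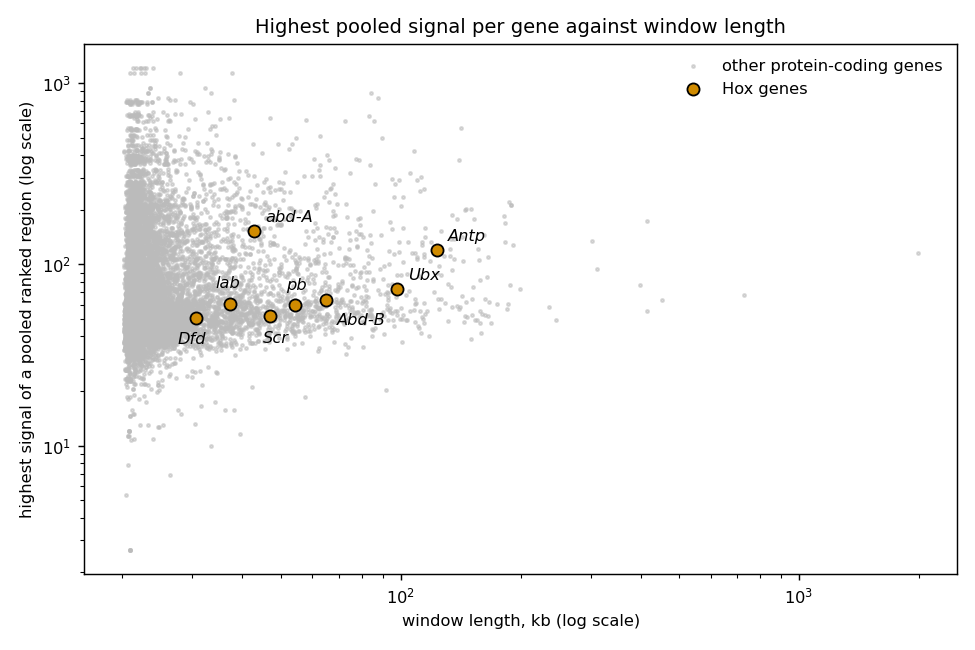
Highest signal of a pooled ranked region (y axis, log scale) against window length (x axis, kb, log scale) for all protein-coding genes, with the 8 Hox genes marked. The Hox genes lie within the cloud of other genes, from Dfd at 50.4 to abd-A at 152.9.

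Ranked regions, the thresholded ones included, were slightly less dense at Hox genes than elsewhere in the pooled list. It held 103.5 regions per 100 kb in Hox windows, 108.4 on the main arms and 116.3 on arm 3R. In replicate 1 the densities were 79.6, 78.3 and 84.4, and in replicate 2 they were 98.7, 95.0 and 102.6. The pooled median signal at Hox genes was 21.1 against 19.4 for the list, a ratio of 1.09, and the ratio to the median of arm 3R, 19.9, was 1.06. The ratio to the list was 1.04 in replicate 1 (11.3 against 10.9) and 1.09 in replicate 2 (14.7 against 13.5), and to arm 3R it was 1.02 and 1.06. By gene, the pooled median ran from 18.5 at Scr to 24.1 at lab. The place of a gene by this median, as a percentile of the genes with long windows, depended on the list. Dfd stood at 83.7 in the pooled list but low in both replicates, at 8.84 and 16.7. Between replicates 1 and 2, lab rose from 52.5 to 93.7, Scr from 23.9 to 74.5 and Antp from 17.4 to 73.4. Ubx rose from 65.5 to 80.2 and abd-A from 66.6 to 85.4, while pb fell from 79.0 to 47.1 and Abd-B from 59.2 to 56.4.

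Among the strongest 5% of all pooled regions were 46 of the 515 at Hox genes, or 8.93%. The shares were 5.81% in replicate 1 and 7.94% in replicate 2. In the pooled list the share was highest at lab, where 6 of 50 regions belonged to the strongest 5%, followed by abd-A with 5 of 45 and Antp with 12 of 111. At Dfd, 1 of 28 did. This order was not that of the replicates: abd-A had 1 of 29 in replicate 1 and 2 of 52 in replicate 2, and Dfd had 0 of 29 and 3 of 30.

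With the looser limit of an IDR of 0.05 on the ranked pooled list, 18 regions lay at 7 of the 8 Hox genes, where 52.7% of all genes and 67.6% of those with long windows held such a region. Antp had 8 of them, Ubx 3, lab and pb 2 each, and Dfd, abd-A and Abd-B 1 each, with none at Scr. The density was 3.62 per 100 kb against 2.70 on the main arms. All 18 overlapped a ranked region of each replicate. An IDR limit favours regions that peak sets rank alike, and this overlap was not counted for other regions, so it is no separate support. Of the 18, 11 lay inside a Hox gene body, and gene bodies make up 337524 of the 497524 bp in the windows.

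Regions at Hox genes were mostly intronic. Of the 515, 64.1% had their summit in an intron, against 37.4% of the whole list, and introns make up 59.1% of the sequence in the Hox windows. Coding sequence held 8.54% of them, against 19.98% of the list and 4.90% of the window sequence. Promoters, within 500 bp of a protein-coding TSS, held 7.38%, against 12.1% of the list and 6.84% of the window sequence. Intergenic sequence held 62 regions, or 12.04%, against 24.1% of the list and 18.1% of the window sequence. Of the 6 thresholded summits, 3 were intronic and 1 each lay in a 3′ UTR, a promoter and intergenic sequence, whereas 42.5% of all thresholded peaks were at promoters. Gene bodies, 337524 bp in all, held 375 of the 515 regions. Upstream flanks held 62 and downstream flanks 78, each over 80000 bp. The densities were 11.1, 7.75 and 9.75 per 10 kb in this order.

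A ranked pooled region lay within 500 bp of a TSS at 5 of the 8 Hox genes and 11 of their 19 TSSs. Over all protein-coding genes and TSSs the shares were 77.3% and 74.4%. The strongest was that of lab with 55.5, followed by Abd-B with 50.9, Dfd with 34.4, Ubx with 23.2 and Antp with 22.9. The medians over all regions within 500 bp were 22.6, 20.2, 22.8, 15.4 and 20.5 for these genes in the same order. The median was 20.7 for all promoter regions of the list and 19.4 for the whole list. The lab and Abd-B regions ranked 3030 and 4249 of 145186. Again in this order, the highest values within 500 bp were 28.6, 18.0, 19.4, 11.3 and 13.6 in replicate 1 and 31.0, 35.5, 11.3, 14.9 and 16.3 in replicate 2. At pb, Scr and abd-A the nearest pooled region was 7959, 1714 and 2651 bp from a TSS.

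The maps of the complexes also show blank stretches, chosen for description after the maps were seen. In the Antennapedia and bithorax complexes, 8 stretches of at least 8000 bp held no pooled ranked summit, from 9645 to 17506 bp long and together 16.4% of both complexes. They held 7 of the 19 Hox TSSs: the only TSS of pb, both of Scr, all 3 of abd-A and 1 of Abd-B. Over the main arms, 10.5% of protein-coding TSSs lay in such stretches, and 6.35% of those on arm 3R. TSSs of 1 gene share a stretch, and the stretches were picked on these data, so the count of 7 is a description. Replicate 1 had 32 regions in them and replicate 2 had 43, where 85.8 and 109.6 would lie at the replicates' densities over the complexes. The choice of stretches without pooled summits favours low counts, and the stretches were blank only in the pooled list: all 8 held replicate 2 regions and all but 2 held replicate 1 regions. The stretch with the abd-A TSSs, 12598 bp, held 12 replicate 2 regions and 0 of replicate 1, and one inside Ubx, 10216 bp, held 8 of replicate 1 and 1 of replicate 2. Across the main arms such stretches took 15.0% of the sequence, and 10.2% of arm 3R. Between 17.6% and 23.5% of the bases in each stretch are soft-masked as repeats in the RefSeq sequence, against 17.4% in the Hox windows, and the part of repeats in the missing regions was not tested.

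A few peaks lay in the complexes between the Hox windows. In the Antennapedia complex, 337802 bp with 20 protein-coding genes, the pooled thresholded list held 6 summits, 4 at Antp, 1 at the promoter of bcd (signal 91.6, thresholded in replicate 1 only) and 1 in an intron of lncRNA:CR44931, 17480 bp from the TSS of ftz (signal 73.4, thresholded in replicate 2 only). In the bithorax complex, 315614 bp with 6 protein-coding genes, it held 2, the one near abd-A and one in an intron of MSAmiP and lncRNA:iab8, between abd-A and Abd-B (signal 81.0, thresholded in neither replicate). The densities were 1.78 and 0.634 per 100 kb. The median signals of ranked regions were 21.8 and 20.5.

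The Giant site was no more frequent at Hox regions than in the whole list. Within 100 bp of the summit, on either strand, TTACGTAA with at most 1 mismatch was present at 5.24% of the 515 ranked regions and 5.29% of all ranked regions, and the exact site, a subset of these, at 0 and 0.198%. Of the 6 thresholded Hox summits 1 held it, the peak printed above between the starts of CG10324 and CCT3, against 9.32% of all thresholded peaks. Motifs of proteins that act on Hox genes differed more: GCCAT, the core of the Pho site, was present at 47.4% against 41.1% of ranked regions, GAGAG, the GAGA factor site, at 28.0% against 23.5%, and TAATTA, a homeodomain core, at 12.6% against 9.58%. GAGAG was at 3 of the 6 thresholded summits, against 24.6% of the thresholded list, GCCAT at 1 (27.8% of the list) and TAATTA at 1 (14.9%). The GAGAG count depended on the width searched, with 0 of 6 against 10.1% within 50 bp and 3 of 6 against 48.5% within 200 bp. TATCGATA, the DREF site, was at 0.388% against 0.452% of ranked regions and ACAGTGG at 3.11% against 2.92%, and neither was within 100 bp of a thresholded Hox summit. Within 200 bp the DREF site was at 1 of the 6, against 4.93% of the thresholded list. The 515 regions were more often intronic than the list, 64.1% against 37.4%, and the part of position in the motif shares was not tested. A match is a string of letters in the window and does not show that a factor was bound.

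The replicates shared Hox regions about as often as other regions. Of the 515 pooled regions, 69.9% overlapped a replicate 1 region, 86.4% a replicate 2 region and 60.2% both, against 69.6%, 83.7% and 58.5% of the whole list. By gene, the share found in both ran from 49.1% at Abd-B to 82.0% at lab. Across the 310 Hox regions found in both, the rank correlation of the replicates' signals was 0.187, and 0.234 across the 84957 such regions of the whole list. Neighbouring regions share their library and are not independent, so these are descriptions.

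Genes that act with Hox genes were listed for comparison. A pooled thresholded summit was present at 1 of 7 gap genes (gt), 2 of 9 pair-rule genes (slp1 and slp2, which share the peak), 5 of 10 segment polarity genes (nkd, fz, ptc, gsb and wg), 1 of 5 Hox cofactors and partners (hth, whose product brings the Hox cofactor Exd into the nucleus) and 3 of 7 textbook Hox targets (ems, dpp and wg). Over all protein-coding genes the share was 34.9%, and 45.7% over the genes with long windows. The lists are short, and none was tested against these shares. The 8 Hox genes, with 3, had the longest windows, 50563 bp in the median against 22533 to 31535 bp for the lists named. The median of the gene medians in the ranked pooled list was 22.0 for Hox genes, 22.1 for gap genes and 20.02 for all protein-coding genes.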

How the data were processed

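Anti-GFP chromatin immunoprecipitation and sequencing was deposited for 2 biological replicates of 1 group (whole gt-GFP embryos), mapped to dm6 per the labels. The authors deposited 8 peak lists, a ranked and a thresholded one per replicate and 2 of each for the series. Peak signal was deposited as the authors' caller wrote it. Which aligner and caller were used, and how the signal was scaled, was not given in the sources used here. For the IDR, the −log10 values of the deposited ranked lists were taken. The 8 columns with signals of paired peak sets were not used. Read depth is unknown, and precision rests on the 2 replicates.

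Regions on 6 main arms were placed on Ensembl release 115 genes and the Release 6 RefSeq sequence. All peaks lay within its arm lengths. Summits were assigned within 10000 bp of a gene body, lists compared by overlaps of at least 1 bp, and motifs sought within 100 bp on both strands. Promoters took precedence over exonic classes, and these over introns. With 1 group no test between groups was possible, so all values are descriptions beside the same value over all genes or the whole list. The rule for naming took all 8 Hox genes, their thresholded summits, strongest regions and regions nearest to a TSS, and genes holding or nearest to these. Members and lists were chosen with earlier results of these data known. Counting, thinning and motif functions were tested on simulated data. Python 3.11.15, numpy 2.4.6, pandas 2.3.3 and matplotlib 3.10.9 were used. Alternatives were other distances, lists, IDR limits, overlap rules, motif widths and each replicate alone.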

Additional observations from a re-analysis of the deposited data

How the results depend on the processing

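The number of Hox genes with a pooled thresholded summit, 3, depended on the distance and the list. It was 5 within 20000 bp (50.1% of all protein-coding genes) and 7 at an IDR of 0.05 (52.7%). It was 1 within 5000 bp (24%), within the gene body alone (0 bp, 5.76%) and when peaks went to the nearest TSS (9.18%). It was also 1 without the downstream flanks, an alternative chosen after seeing the data, as was counting 1 summit per 300 bp, which left 5 of the 6 summits. The share of all genes with a summit when downstream flanks are left out was not counted. Leaving out either replicate gave 2 to 4 genes. The 6 summits became 3 among peaks above the list's median signal and 18 at an IDR of 0.05, and 3 to 4 when either replicate was left out. Replicate 1 had 5 summits in place of 3 within 20000 bp, and replicate 2 had 1 in place of 4 within 5000 bp or in gene bodies.

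The density of ranked regions, 10.4 per 10 kb, became 8.24 with 1 region per 300 bp and 7.96 to 9.87 when either replicate was left out. The ratio of the Hox median signal to the list median, 1.09, was 1.04 to 1.09 when either was left out. Of 42 alternatives for these results, those named here included, 27 stayed within 1.5 times the count or within 1 SD of the replicates. No paired analysis was possible because there is 1 group. Read depth is unknown, so weak sites at Hox genes could not be weighed against counting error.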
